A study of Bos taurus with 21 samples.

Results

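The genes described here encode enzymes of the citrate cycle and 1 assembly factor of a cycle enzyme, 9 genes in all: *CS*, *IDH2*, *IDH3A*, *IDH3B*, *OGDH*, *SUCLA2*, *SDHAF2*, *FH* and *MDH2*. They were chosen by name, and a probe was counted as a member where its RefSeq transcript maps to a listed gene in the cattle annotation. This gave 27 probes, out of 26628 probes that could be named for 12538 genes on the array. The choice was made with a discordance between the *CS* probes already known, so the values of these 3 probes are given as a description and carry no test.

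The study followed skeletal muscle of bovine foetuses of 2 beef breeds, Blonde d'Aquitaine (BA) and Charolais (CH), at 110, 180, 210 and 260 days post conception (dpc). Each of the 21 one-colour Agilent arrays carried the RNA of 1 foetus. At the 4 successive stages BA contributed 3, 2, 3 and 2 foetuses, CH 2, 3, 3 and 3. No treatment was given. Males numbered 3 in BA and 5 in CH, females 7 in BA and 6 in CH. At the successive stages males numbered 2, 0, 1 and 0 in BA and 0, 1, 2 and 2 in CH. Sex was therefore uneven between the breeds at each stage. Each breed had 2 sires, so that breed and sire cannot be told apart. In BA the foetuses of 180 dpc shared a sire and those of 260 dpc shared the other. Stage and sire are therefore also mixed in BA. The labels name the muscle as *Longissimus thoracis* and the methods of the study as *m. Semitendinosus*. The genotype of the BA foetuses at the myostatin gene was not determined, as the study states, so a breed difference here is one between these foetuses and not between alleles.

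All values are normalized log2 intensities, the log2 signal of a probe minus the 75th percentile of its array plus a constant that is the same for all arrays. The constant is the median distance between the 75th percentile and the median of an array. A value of 0 therefore lies near the median probe of an array and is not the absence of RNA. Probes near or below it are called dim here. A difference of 1 is a doubling. The array 75th percentile ranged from 525 to 1174 intensity units, and 29027 to 34508 of 43653 probes per array were well above background. All 8 skeletal muscle markers, among them *ACTA1*, *CKM* and *DES*, were well above background on all 21 arrays. Each of the 27 member probes was well above background on 21 of 21 arrays. The number of arrays limits the precision.

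The citrate cycle is the circular pathway of the mitochondrial matrix that oxidizes the acetyl group delivered by pyruvate dehydrogenase and by fatty acid oxidation, and it hands the electrons to the respiratory chain as NADH and as reduced flavin. Citrate synthase opens the cycle and its activity is a customary measure of mitochondrial content in muscle. Skeletal muscle fibres of the oxidative type hold more of these enzymes than glycolytic fibres, and the muscle of mammals acquires much of this capacity around birth.

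The genes of the cycle rose together through gestation. Between 110 and 260 dpc, with the breeds averaged, 22 of the 23 tested probes of the 8 genes other than *CS* rose and 1 fell, each past an adjusted p of 0.05 in limma. Over all 20132 tested probes the same contrast called 64.1%: 33.3% were higher and 30.8% lower at 260 dpc. From the brightest tested probe of each gene, the median rise of the 8 genes was 1.46 on the log2 scale, with a range of 0.38 to 1.95, and the median over all tested probes was 0.04. These differences are relative to the 75th percentile of each array, and without that scaling the median probe was 0.35 lower at 260 than at 110 dpc.

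**Figure D1:**
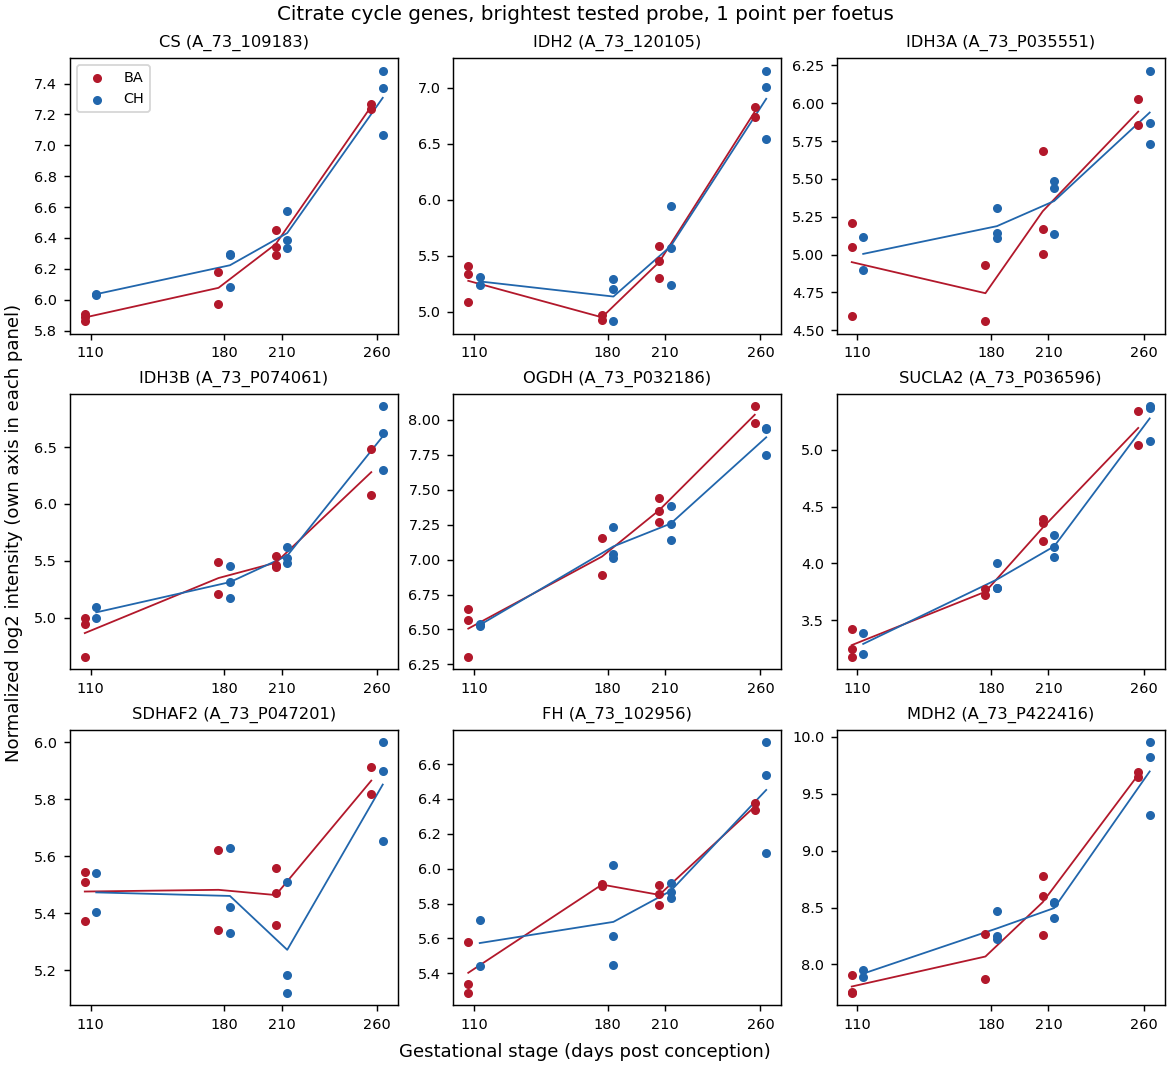
Normalized log2 intensity of the brightest tested probe of each of the 9 genes against gestational stage in days post conception, with 1 point per foetus (BA red, CH blue, set slightly apart) and lines through the group means; each panel has its own axis. In the 8 genes other than *CS* the 5 foetuses of 260 dpc lie above the 5 of 110 dpc, and BA and CH points are mixed at most stages.

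In the order of the cycle, the oxidative decarboxylation steps start from isocitrate. *IDH2*, the NADP-dependent isocitrate dehydrogenase of mitochondria, measured 5.09, 5.34 and 5.41 in the BA foetuses and 5.24 and 5.31 in the CH foetuses of 110 dpc. At 260 dpc it measured 6.74 and 6.83 in BA and 6.54, 7.01 and 7.15 in CH. Every foetus of 260 dpc was above every foetus of 110 dpc, and the rise was 1.57 (SE 0.14, 2.97-fold, adjusted p = 2.5e-08 by limma). The other *IDH2* probes rose by 1.41 and 1.83.

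*IDH3A* and *IDH3B* encode the catalytic alpha subunit and the beta subunit of the NAD-dependent isocitrate dehydrogenase, the enzyme that runs this step of the cycle proper. *IDH3A* measured 5.21, 5.05 and 4.59 in BA and 5.11 and 4.90 in CH at 110 dpc. It measured 6.03 and 5.86 in BA and 5.73, 6.22 and 5.87 in CH at 260 dpc. The stages did not overlap, and the rise of 0.96 (SE 0.15, adjusted p = 2.3e-05 by limma) was smaller than that of *IDH2*, a difference between genes that was not tested. The second *IDH3A* probe rose by 0.78.

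*IDH3B* was the gene whose probes moved apart with stage. Its brightest probe, A_73_P074061, measured 4.66, 4.99 and 4.94 in BA and 4.999 and 5.09 in CH at 110 dpc, and 6.08 and 6.48 in BA and 6.30, 6.86 and 6.63 in CH at 260 dpc. This was a rise of 1.48 (SE 0.11, adjusted p = 5.3e-09 by limma). A_73_105836, which carries the same RefSeq transcript, NM_001145872, went the other way: it measured 1.94, 2.10 and 1.93 in BA and 2.03 and 1.95 in CH at 110 dpc, and 1.56 and 1.36 in BA and 1.51, 1.53 and 1.29 in CH at 260 dpc. It fell by 0.54 (SE 0.10, adjusted p = 1.9e-04 by limma), again with no overlap between the stages, and with the slide as a block the change was -0.36 with an adjusted p of 0.055. Both probes of the other *IDH3B* transcript, NM_001167874, rose, by 1.99 (A_73_P163057) and 1.94 (A_73_P442221). Thus 3 of 4 probes rose and 1 fell.

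*OGDH*, the E1 component of the 2-oxoglutarate dehydrogenase complex, carries out the next decarboxylation. It measured 6.30, 6.65 and 6.57 in BA and 6.54 and 6.53 in CH at 110 dpc, and 7.98 and 8.10 in BA and 7.75, 7.93 and 7.94 in CH at 260 dpc. The rise was 1.44 (SE 0.09, 2.71-fold, adjusted p = 3.7e-10 by limma), and the other *OGDH* probe rose by 1.57.

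*SUCLA2*, the beta subunit of the ADP-forming succinate-CoA ligase, rose the most of the 8 genes by its brightest probe. It measured 3.42, 3.24 and 3.18 in BA and 3.38 and 3.20 in CH at 110 dpc. At 260 dpc it measured 5.04 and 5.34 in BA and 5.08, 5.38 and 5.37 in CH. The rise was 1.95 (SE 0.09, 3.86-fold, adjusted p = 1.4e-11 by limma). The other tested *SUCLA2* probes rose by 1.86 and 1.93, and the dim probe A_73_P107116, which was above 0 in 6 of 8 groups and so was not tested, was 1.28 (SE 0.20) higher at 260 dpc.

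*SDHAF2*, the assembly factor needed to attach flavin to the large subunit of succinate dehydrogenase, moved least. It measured 5.37, 5.51 and 5.55 in BA and 5.40 and 5.54 in CH at 110 dpc, and 5.82 and 5.91 in BA and 5.65, 5.90 and 6.001 in CH at 260 dpc. Even here the stages did not overlap, with a rise of 0.38 (SE 0.10, 1.31-fold, adjusted p = 0.0028 by limma) and of 0.57 by the second probe. The rise of the brighter probe depended on the scaling of the arrays: it was 0.16 with an adjusted p of 0.12 after quantile normalization and -0.0060 with an adjusted p of 0.98 in the authors' value table, which is not scaled between arrays.

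*FH*, which hydrates fumarate to malate, measured 5.29, 5.58 and 5.34 in BA and 5.44 and 5.71 in CH at 110 dpc, and 6.38 and 6.34 in BA and 6.09, 6.54 and 6.73 in CH at 260 dpc. Its rise was 0.92 (SE 0.12, adjusted p = 4.4e-06 by limma), and its 4 probes lay close together, between 0.83 and 1.03. *MDH2*, the mitochondrial malate dehydrogenase that closes the cycle, measured 7.75, 7.91 and 7.75 in BA and 7.95 and 7.89 in CH at 110 dpc, and 9.69 and 9.64 in BA and 9.31, 9.95 and 9.82 in CH at 260 dpc. It rose by 1.82 (SE 0.13, 3.53-fold, adjusted p = 1.4e-09 by limma), and its other probes rose by 2.06 and 2.17. Apart from *IDH3B*, all tested probes of a gene moved in 1 direction, and within a gene the spans between tested probes were at most 0.42.

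The rise was found in each breed. In BA alone and in CH alone, 22 of the 23 tested probes rose and 1 fell, where of all tested probes 27.6% rose and 24.8% fell in BA (52.4% called), and 27.5% rose and 24.7% fell in CH (52.2% called). The median rise of the 8 genes was 1.46 in BA and 1.45 in CH. The difference between the breeds in this rise was tested for each probe, and 0 of 23 were called by limma (0% of all tested probes), and 0 had an unadjusted p under 0.05 (7.09% of all). Over the brightest probes of the 8 genes, the 95% intervals of that difference ran from -0.70 to 0.69.

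The time course had its steepest part at the end. From 210 to 260 dpc, 22 of the 23 probes, from all 8 genes, rose, where of all tested probes 44.7% were called and 24.8% rose,, and the median of the 8 genes was 0.79 on the log2 scale. From 110 to 180 dpc, 9 probes of *IDH3B*, *OGDH*, *SUCLA2* and *MDH2* rose and 1 of *IDH3B* fell, which makes 10 of 23 against 24% of all tested probes, 12.5% higher and 11.4% lower. From 180 to 210 dpc, 6 probes of *IDH2*, *IDH3B* and *SUCLA2* rose, against 9.68% of all called and 5.35% higher. The medians of these earlier intervals were 0.32 and 0.29. The intervals span unequal numbers of days and share stages, and the difference between them was not tested. The counts of the earlier intervals were unstable: each was 0 in the authors' value table. The first was 5 without CH foetus 2 of 180 dpc and 12 without BA foetus 2 of 110 dpc. The second was 8 without BA foetus 2 of 210 dpc. The shares of all tested probes called in these settings are not given here. These changes in the counts are therefore not read as particular to these probes.

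**Figure D2:**
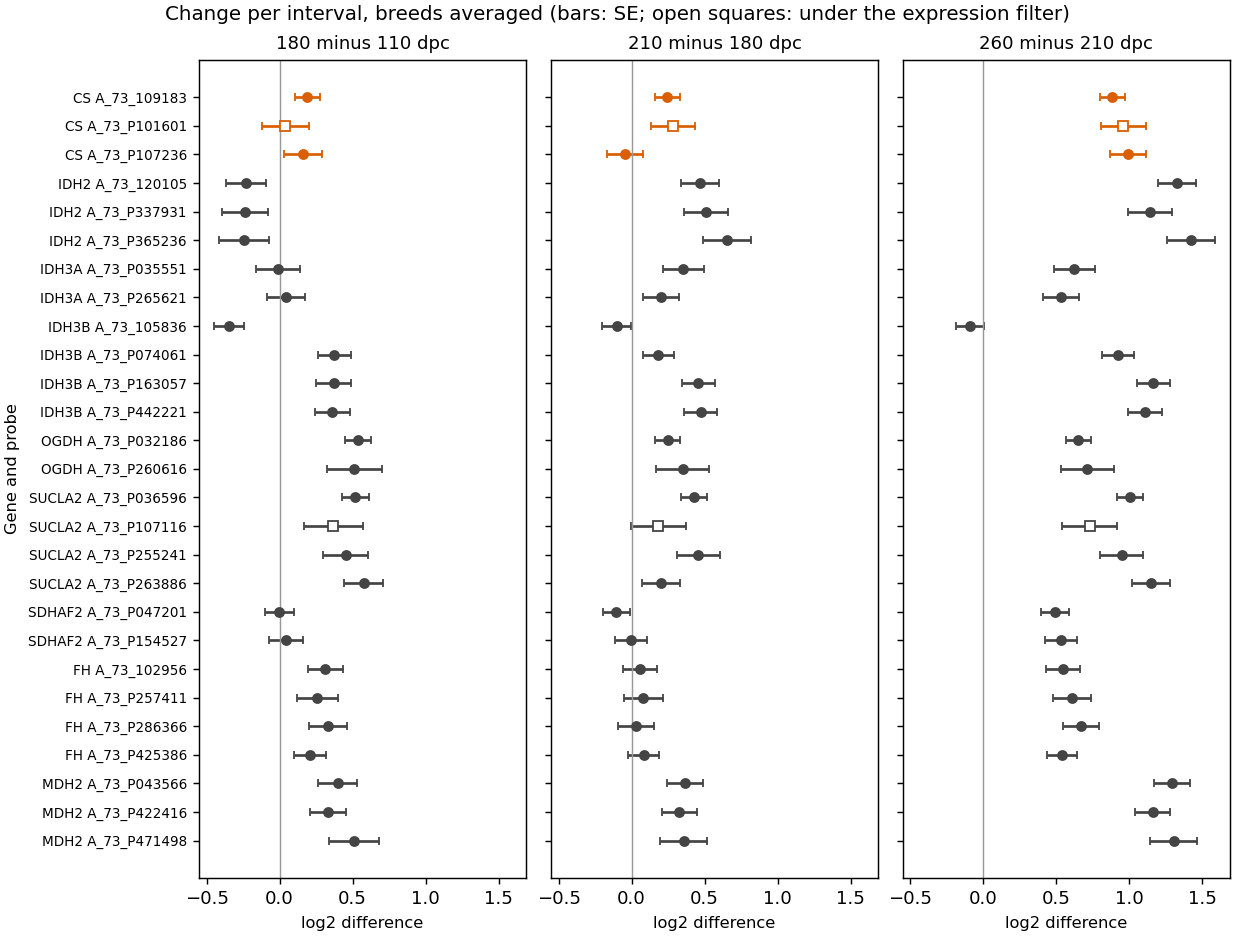
Change of each of the 27 probes on the log2 scale in the 3 intervals between stages, breeds averaged, with bars for the standard error, *CS* in orange and the 2 probes under the expression filter as open squares. In the last interval every probe but *IDH3B* A_73_105836 lies right of 0, and in the first the *IDH2* probes lie left of it.

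By the brightest probes, the spread of the rise over gestation varied among the genes, a difference that was not tested. In the authors' value table, none of the tested probes of these genes was called in the intervals before 210 dpc. The share of all tested probes called there is not given here. *OGDH* and *SUCLA2* rose from the start, by 0.54 (adjusted p = 3.0e-04 by limma) and 0.52 (adjusted p = 5.6e-04) between 110 and 180 dpc, and 45.2% and 51.4% of their whole change fell in the last interval. *IDH2* was late: its first interval gave -0.23 (adjusted p = 0.25), the second a rise of 0.47 (adjusted p = 0.029) and the last a rise of 1.33 (adjusted p = 7.2e-07), or 84.6% of the whole. All 3 *IDH2* probes had this form, with values of -0.23 to -0.24 in the first interval. The last interval held 62.3% of the whole change of *IDH3B*, 63.8% of that of *MDH2*, 64.5% of that of *IDH3A* and 59.3% of that of *FH*. *SDHAF2* was at -0.0032 and -0.10 in the earlier intervals, neither of them called, so that its last step of 0.49 (adjusted p = 4.9e-04) was 128% of the whole.

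Markers of other cells and of the fibres also differed between these stages. The summed level of the 8 skeletal muscle markers lay between 11.27 and 11.82 at 110 dpc and, at 260 dpc, between 13.66 and 13.98. The 4 erythroid markers lay between 8.70 and 9.65 at the early stage and between 7.24 and 8.10 at the late one, the 5 leukocyte markers between 4.43 and 5.63 and then between 4.32 and 4.35, and the 2 cartilage markers between 4.10 and 8.02 and then between 1.06 and 2.90. The 4 nerve markers went from between 4.29 and 4.71 to between 5.39 and 6.44. These 5 sums did not overlap between the stages, but a sum follows its brightest probes and single markers went both ways. At 260 dpc 7 of 8 muscle markers were higher and *MYOG* was at -0.78, and 3 of 4 nerve markers were higher and *SOX10* was at -0.71. Of the erythroid markers 3 of 4 were lower, with *AHSP* at 0.15, and both cartilage markers were lower. Of the leukocyte markers 3 of 5 were higher, among them *CD3E* at 3.21 and *CD68* at 0.83, where *CSF1R* was at -1.42. Some of these markers were near the floor: *CD3E* was well above background on 13 of the 21 arrays, *SOX10* on 15 and the cartilage marker *ACAN* on 5. The summed adipocyte, fibroblast, smooth muscle and endothelial lists overlapped between the stages. Of their single markers, all 5 of fibroblasts were lower at 260 dpc, with *LUM* at -1.44. All 4 of adipocytes were higher, with *CIDEC* at 2.97, and 2 of these 4 were well above background on all arrays. Endothelial markers were higher in 3 of 4 and smooth muscle markers in 1 of 2. No marker with a probe was below background on all arrays. Their part in the rise of the citrate cycle genes was not tested, and in whole muscle a change in the share of fibres and a change in RNA per fibre cannot be told apart.

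The rest of the pathway was read from a list of 40 further genes, of which 38 had a probe and 33 a tested one. From their brightest tested probes, 25 of 33 rose and 3 fell between 110 and 260 dpc, with a median of 1.22. Of all tested probes 33.3% rose and 30.8% fell in this contrast. The largest rise was that of *SDHB*, the iron-sulphur subunit of succinate dehydrogenase, at 2.38 (SE 0.11, 5.21-fold, adjusted p = 1.8e-11 by limma). *GOT2*, the mitochondrial aspartate aminotransferase of the malate-aspartate shuttle, rose by 1.95 (adjusted p = 4.1e-11). Among the genes that fell were *ACLY*, which splits citrate in the cytosol for lipid synthesis, at -1.497 (SE 0.09, adjusted p = 3.5e-10), and *ME2*, a mitochondrial malic enzyme, at -0.39 (adjusted p = 0.0093). *IDH1*, the cytosolic counterpart of *IDH2*, was at -0.17 (SE 0.15, adjusted p = 0.34). *PDHA1*, *PDHB*, *DLAT* and *DLD* of the pyruvate dehydrogenase complex were all among the genes that rose, at 1.45, 1.69, 1.57 and 1.47; these, like *IDH1*, are named beyond the largest changes and were picked after their values were seen.

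**Figure D3:**
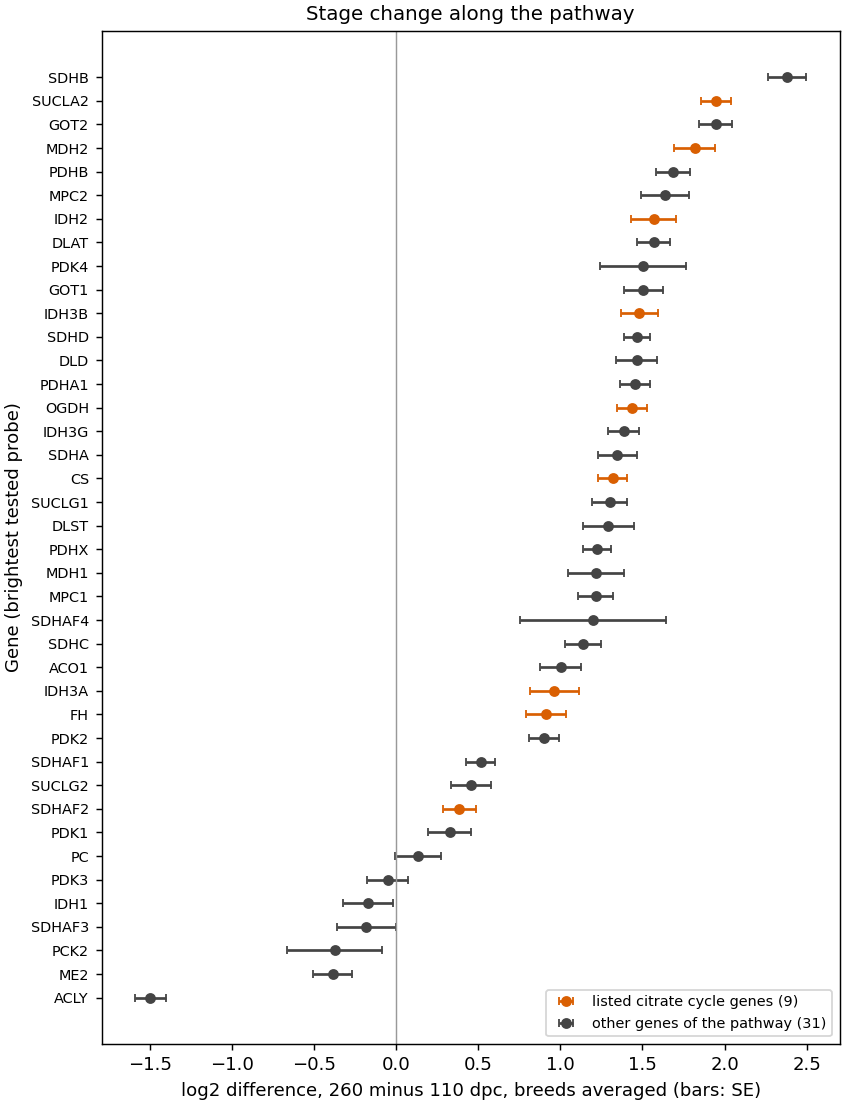
Change between 110 and 260 dpc on the log2 scale, breeds averaged, of the brightest tested probe of the 9 citrate cycle genes (orange) and of 31 other genes of the pathway (grey), in order of size, with bars for the standard error. The values run from *ACLY* at -1.497 to *SDHB* at 2.38, and the 9 genes lie between 0.38 (*SDHAF2*) and 1.95 (*SUCLA2*).

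Across the 21 arrays, the genes whose profile lay closest to the mean of the 8 genes were *NDUFAB1* (Pearson r = 0.994), *ATP5F1A* (0.993), *CYC1* (0.990), *FUNDC2* (0.990) and *NDUFA9* (0.989). *NDUFAB1* and *NDUFA9* encode a carrier protein and a subunit of respiratory complex I, *CYC1* cytochrome c1 of complex III and *ATP5F1A* the alpha subunit of ATP synthase. These correlations are a description over arrays that share the stage trend.

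No breed difference was detected in the 8 genes other than *CS*. At 110, 180, 210 and 260 dpc, and for the average of the stages, 0 of the 23 tested probes were called by limma, against 0.273%, 0.00993%, 0%, 0% and 0.358% of all tested probes. At an unadjusted p under 0.05 the count was 0 at 110 dpc (13.8% of all tested probes), 180 dpc (6.17%) and 260 dpc (5.34%) and for the average (12.5%). It was 1 at 210 dpc (5.24%), where *FH* A_73_P425386 measured 3.43, 3.39 and 3.63 in BA and 3.23, 3.08 and 3.24 in CH, a difference of 0.30 (adjusted p = 0.94). The other *FH* probes were at -0.02 to 0.15 at that stage. With so few foetuses this leaves room for differences of some size: at a single stage the 95% intervals of the brightest probes reached from -0.89 to 0.58, and for the average over stages from -0.36 to 0.20.

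The medians of BA minus CH over the 8 genes were -0.04 at 110 dpc, -0.09 at 180 dpc, 0.01 at 210 dpc and -0.06 at 260 dpc, from the brightest probe of each gene, and at 110, 180 and 210 dpc their sign changed in the authors' value table (0.05, 0.05 and -0.04). Over all 23 member probes the medians were -0.18, -0.11, 0.09 and -0.08, with 20 of 23 probes below 0 at 110 dpc, 16 at 180 dpc, 9 at 210 dpc and 17 at 260 dpc, where 57.3%, 50.6%, 49.5% and 52.4% of all tested probes were below 0. Probes of the same gene are not independent of each other. The medians over all tested probes were -0.04, -0.0025, 0.0020 and -0.01. At 110 dpc the breeds did not overlap in 8 of the 23 probes (29.1% of all tested probes), all with BA below CH (17.5% of all). At 180 dpc they did not overlap in 5 (25.5%), again all with BA below CH (13.6%). At 210 dpc this held for 1 probe (10.5%) and at 260 dpc for 1 (19%), both with BA above CH (5.62% and 8.9%), the last being *OGDH* A_73_P032186, at 7.98 and 8.10 in BA and 7.75, 7.93 and 7.94 in CH. The widest average difference among the 8 brightest probes was that of *IDH3A*, at -0.14 (SE 0.10, adjusted p = 0.60). *IDH3B* followed at -0.13 and *IDH2* at -0.11, and *SUCLA2* was at -0.0095. Over all 23 probes the widest average was that of *IDH2* A_73_P365236, at -0.23 (SE 0.12, adjusted p = 0.43 by limma). Of the 23 averages 17 were below 0, against 55.3% of all tested probes. At 260 dpc the *IDH2* probes were at -0.12 (A_73_120105), -0.40 (A_73_P337931) and -0.37 (A_73_P365236), none of them called, and the breeds overlapped in each. Among the other 33 genes of the pathway, limma called 0 at any stage or for the average. At an unadjusted p under 0.05 the count was 4, 3, 3 and 1 at the successive stages and 7 for the average. The shares of all tested probes were 13.8%, 6.17%, 5.24% and 5.34%, and 12.5% for the average. The difference was below 0 in 23, 22, 13 and 27 of these 33 genes at the successive stages, with medians of -0.13, -0.07, 0.03 and -0.10.

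The 3 probes of *CS*, all assigned to the transcript NM_001044721, all rose from 110 to 260 dpc and differed between breeds in unlike ways. The brightest, A_73_109183, measured 5.86, 5.91 and 5.89 in BA and 6.03 and 6.04 in CH at 110 dpc. At 180 dpc it measured 5.97 and 6.18 in BA and 6.29, 6.30 and 6.08 in CH, and at 210 dpc 6.34, 6.29 and 6.45 in BA and 6.57, 6.34 and 6.39 in CH. At 260 dpc it reached 7.27 and 7.24 in BA and 7.07, 7.37 and 7.48 in CH. The breeds overlapped at all stages except 110 dpc, where both CH foetuses were above the 3 BA foetuses by a small margin. The difference of BA minus CH was -0.15, -0.15, -0.07 and -0.06 at the 4 stages and -0.11 on average (SE 0.06).

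A_73_P107236, which also passed the expression filter, showed BA above CH throughout. It measured 2.91, 3.29 and 3.48 in BA and 2.73 and 2.45 in CH at 110 dpc, and 3.36 and 3.71 in BA and 2.62, 2.56 and 2.63 in CH at 180 dpc. At 210 dpc it measured 3.32, 3.13 and 3.64 in BA and 2.85, 2.70 and 2.52 in CH, and at 260 dpc 4.62 and 4.52 in BA and 3.18, 3.63 and 3.57 in CH. The lowest BA foetus was above the highest CH foetus at each stage, a pattern found in 0.0795% of all tested probes. Nothing is read from this share, since the probe was chosen with its breed difference known. The differences were 0.64, 0.93, 0.67 and 1.11 at the 4 stages and 0.84 on average (SE 0.09), or 1.79-fold.

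A_73_P101601 lay between the others in breed difference and was dim. It measured -0.26, 0.02 and 0.22 in BA and -0.27 and 0.15 in CH at 110 dpc, and -0.08 and 0.48 in BA and -0.52, -0.09 and 0.04 in CH at 180 dpc. At 210 dpc it measured 0.59, 0.10 and 0.63 in BA and 0.24, 0.18 and -0.01 in CH, and at 260 dpc 1.62 and 1.54 in BA and 0.75, 1.06 and 0.91 in CH. The breeds were apart at 260 dpc and overlapped at the other stages. BA minus CH was 0.06, 0.39, 0.31 and 0.67 at the 4 stages and 0.36 on average (SE 0.11). Its group means were above 0 in 5 of 8 groups, under the 7 required, and with *SUCLA2* A_73_P107116 it was the only member outside the filter; the other 25 probes were above 0 in all 8 groups.

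**Figure D4:**
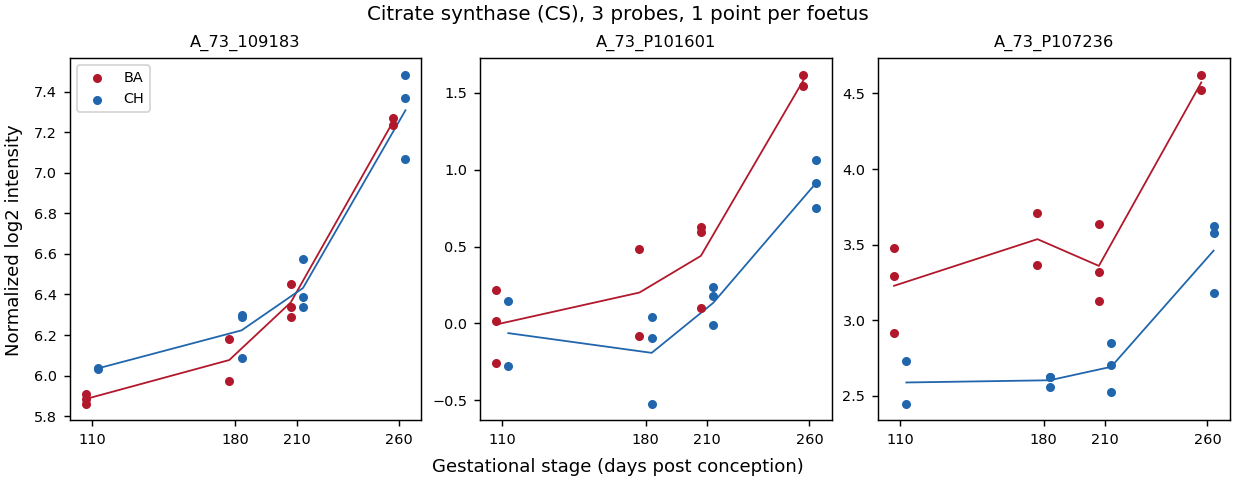
Normalized log2 intensity of the 3 citrate synthase probes against gestational stage in days post conception, with 1 point per foetus (BA red, CH blue) and lines through the group means; each panel has its own axis. BA and CH run together in A_73_109183, and the BA points lie above the CH points at every stage in A_73_P107236, with 4.62 and 4.52 against 3.18 to 3.63 at 260 dpc.

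With stage, the *CS* probes moved in the direction of the other genes. From 110 to 260 dpc the rise was 1.32 (SE 0.09) for A_73_109183, 1.28 (SE 0.16) for A_73_P101601 and 1.11 (SE 0.13) for A_73_P107236. For A_73_109183 it was 1.37 in BA and 1.27 in CH, for A_73_P101601 1.59 and 0.97, and for A_73_P107236 1.34 and 0.87. The foetuses of 110 and 260 dpc did not overlap in A_73_109183 and A_73_P101601. In A_73_P107236 they overlapped over both breeds, with a CH foetus at 3.18 at 260 dpc and BA foetuses at 3.29 and 3.48 at 110 dpc. Within each breed they did not overlap. Between 180 and 210 dpc A_73_P107236 was at -0.04, where the others were at 0.25 and 0.28. Over the 21 arrays, the Pearson r with the mean of the 8 other genes was 0.986 for A_73_109183, 0.860 for A_73_P101601 and 0.622 for A_73_P107236.

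**Figure D5:**
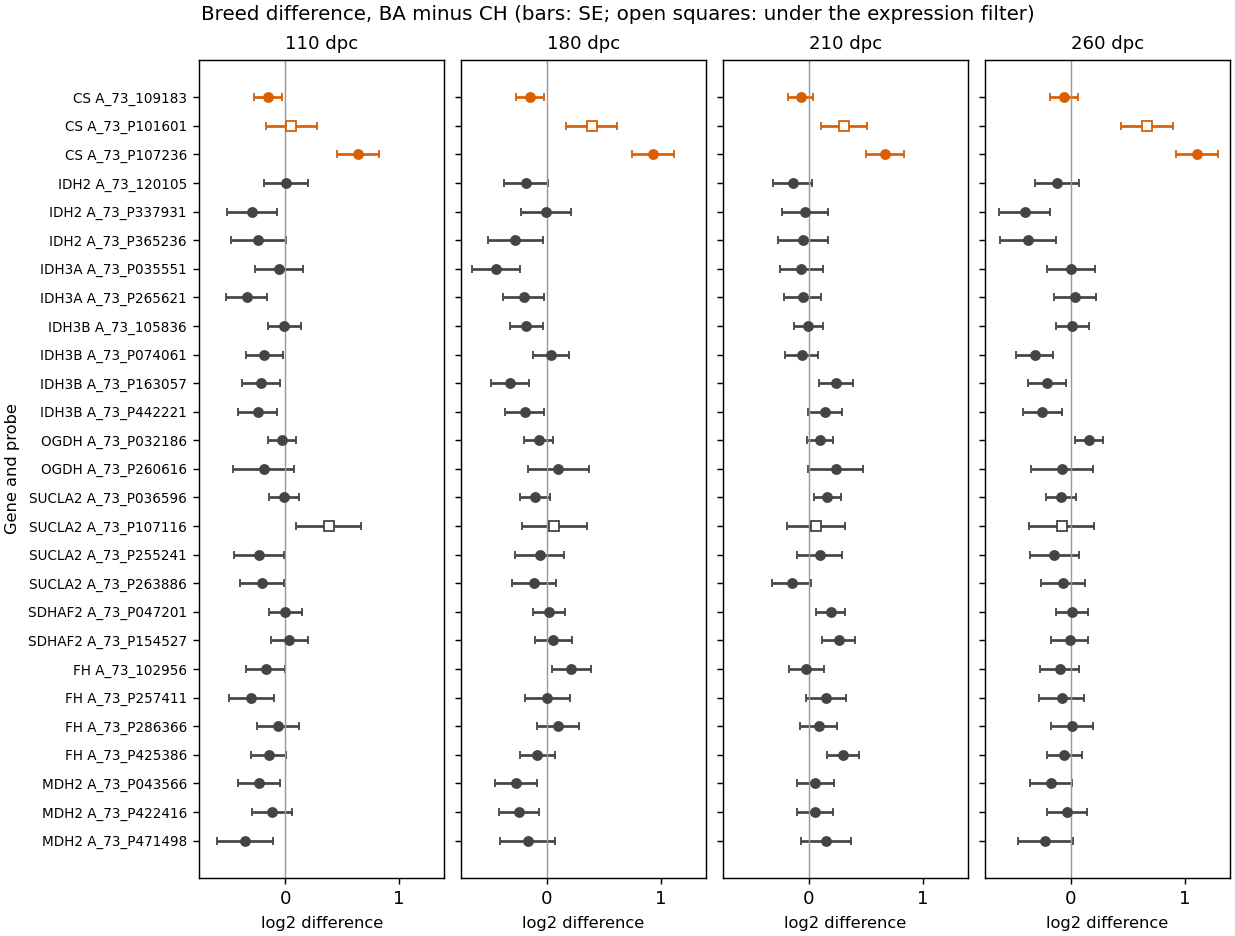
Difference of BA minus CH on the log2 scale for each of the 27 probes at the 4 stages, with bars for the standard error, *CS* in orange and the 2 probes under the expression filter as open squares. *CS* A_73_P107236 lies at 0.64 to 1.11, and the brightest *CS* probe at -0.15 to -0.06 among the probes of the other genes.

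The genes with the most similar profiles also differed between the *CS* probes. Those of A_73_109183 were *PDHA1* (r = 0.990), *FAHD1* (0.988), *NIPSNAP2* (0.987), *ATP5IF1* (0.987) and *ATP5F1A* (0.986), the last of which was also among the closest to the mean of the 8 genes. Those of A_73_P101601 were *SLC37A4* (0.936), *NFE2L2* (0.909), *PCYOX1* (0.903), *TXNIP* (0.899) and *NUPR2* (0.897). Those of A_73_P107236 were *LRCH4* (0.824), *MRPL12* (0.820), *YWHAE* (0.796), *SIRT2* (0.787) and *NFE2L2* (0.784). These lists describe the 21 arrays, which share stages and breeds.

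Set beside the other enzymes, the brightest *CS* probe had an average breed difference (-0.11) within the range of the 8 genes, -0.14 to 0.06, and A_73_P107236 (0.84) and A_73_P101601 (0.36) were outside it. Within the other genes the largest span between probes in the average breed difference was 0.24, in *SUCLA2* with its dim probe included, and within *CS* it was 0.94. In the 6 pairs of BA and CH foetuses of the same stage that shared a slide, the difference of BA minus CH was 0.28 to 1.34 for A_73_P107236, whose sign is fixed by the lack of overlap at each stage. It was -0.14 to 0.79 for A_73_P101601 and -0.28 to 0.17 for A_73_109183. The median of the 8 genes in these pairs ran from -0.25 to 0.26. At 260 dpc the summed level of the 4 endothelial markers was 5.62 to 5.80 in BA and 5.32 to 5.58 in CH, without overlap. Of all tested probes 19% did not overlap between the breeds at this stage. The endothelial list was split, with *PECAM1* at 0.56 and *CDH5* at 0.78 and *VWF* at -0.54 and *TEK* at -0.05 in BA minus CH. The sums of all other marker lists overlapped between the breeds. The summed levels of the 8 skeletal muscle markers were 13.72 to 13.87 in BA and 13.66 to 13.98 in CH. Those of the 4 adipocyte markers were 0.95 to 4.85 in BA and 1.28 to 3.39 in CH, with all 4 higher on average in BA. Both cartilage markers were also higher on average in BA, and both smooth muscle markers were lower, at -0.07 and -0.04. Some of these were near the floor: *LEP* of the adipocyte list was well above background on 3 of the 21 arrays, *CIDEC* on 16 and the cartilage marker *ACAN* on 5. The part of these in the values of the *CS* probes was not tested.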

How the data were processed

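RNA of 21 foetal muscles (10 BA, 11 CH) was hybridised to one-colour Agilent bovine arrays. The deposited scanner files hold spot intensity per probe, extracted by the authors with Agilent Feature Extraction 10.7. The authors' value table holds log2 values of the same arrays; 99.98% of 649670 values were within 0.01 of log2 of the processed signal, so that table is not scaled between arrays or centred. Here log2 of the processed signal was taken without outlier spots (258), averaged per probe, and lowered by the 75th percentile of each array, with 2.69 added. A probe was tested where its group mean was above 0 in at least 7 of 8 groups (20132 of 43653). Probes were named through RefSeq accessions; probe positions and sequences are not given here. limma 3.58.1 (R 4.3.3) fitted 8 group means with Benjamini-Hochberg adjustment over all tested probes, at 0.05. The fit was also run on simulated data with independent noise for each probe and no slide or sire effects. Nothing about these data is read from that run.

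Each gene is followed by its brightest tested probe, and of the other pathway genes the 3 largest rises and falls past the threshold are named, except 2 genes that are counted but not reported here. The members and lists were chosen with earlier results of these data known. Arrays are separate foetuses. The replicate numbers did not pair them: residuals of same-numbered arrays had a median r of 0.03 over 66 pairs, and of other pairs -0.0031 over 126. Alternatives were 3 scalings or background corrections, the authors' table, 2 filters, sex, slide, sire and replicate number as terms, a robust trended fit, each foetus left out and female foetuses alone.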

Additional observations from a re-analysis of the deposited data

How the results depend on the processing

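Of 1353 values recomputed for 41 results, 1305 stayed on their side of the threshold or, with no test, within the spread between foetuses, or within 1.5 times for a count; 12 of these changed sign near 0. The count of 23 probes called between 110 and 260 dpc ranged from 19 to 24 over 12 alternatives and stayed at 23 without any 1 foetus; the breed counts were 0 throughout. With the replicate number as a block, which does not pair these foetuses, 23, 10, 5 and 22 probes were called for 260 minus 110, 180 minus 110, 210 minus 180 and 260 minus 210 dpc, and 0 for each breed comparison; the count for 210 minus 180 dpc is 1 lower than without the block. For 180 minus 110 dpc the count of 10 became 6 under median scaling, 0 in the authors' table (not scaled between arrays), 3 with no filter on dim probes and 3 in female foetuses alone (an alternative chosen after seeing the data), and 4 to 12 without single foetuses. For 210 minus 180 dpc the count of 6 became 0 in the authors' table, 3 with no filter, 3 with slide as a block and 2 in females, and 1 to 8 without single foetuses. For 260 minus 210 dpc it was 13 in the authors' table. The shares of all tested probes called under these settings are not given here. The changed counts are therefore not read as particular to these probes.

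The rise of *CS* A_73_109183 was 0.95 after quantile normalization, 0.93 in the authors' table and 1.53 with slide as a block; that of A_73_P101601 was 0.91 after normexp correction and 0.89 in the authors' table; that of A_73_P107236 was 0.72 in the authors' table and 1.35 with slide as a block. The breed difference of A_73_109183 at 260 dpc was -0.23 in females, -0.17 without CH foetus 1 and 0.03 without CH foetus 3 of that stage; the median of the 8 genes at 260 dpc was -0.20 and 0.02 without the same foetuses. At 110, 180 and 210 dpc that median ran from -0.12 to 0.05, -0.14 to 0.05 and -0.07 to 0.11 over the 12 alternatives, and it was 0.0072 at 180 dpc without BA foetus 1 and -0.06 at 210 dpc without BA foetus 3. The average breed difference of A_73_P107236 stayed between 0.75 and 0.89. Average breed differences near 0 changed sign: *SUCLA2* to 0.0041 (quantile), 0.018 (normexp) and 0.045 (authors' table), and between -0.047 and 0.028 without single foetuses; *FH* to 0.009995 (quantile), 0.063 (normexp) and 0.036 (authors' table), and between -0.064 and 0.022; *IDH3B* A_73_105836 to 0.009981 (authors' table), 0.054 (slide) and 0.0068 (females). The rise of *SDHAF2* became -0.0060 in the authors' table and 0.16 (adjusted p = 0.12) after quantile normalization, and the change of *IDH3B* A_73_105836 was -0.36 (adjusted p = 0.055) with slide as a block. The cause of these changes was not tested. No slide held arrays of 110 and 260 dpc from the same breed, so the stage change has no value within a slide. Where a group is left with 1 foetus, its spread is assumed to be that of the others.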
